A study of Mus musculus with 12 samples.

Results

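Transcripts of 10 genes of the Notch pathway were followed through 4 cell fractions sorted from mouse embryos: the receptors Notch1, Notch2, Notch3 and Notch4, the ligands Dll4, Jag1 and Jag2, and the target genes Hey1, Hey2 and Hes1. They were chosen by name, as all probes that the scanner files assign to these genes, which gave 14 probes for 10 of 27548 gene names on the array. All 14 probes passed the filter on dim signals. Cells came from whole embryos of strain CD-1 at embryonic day 7.5, pooled from 25 litters (about 300 embryos), with no genetic change or treatment given for any sample. After staining for Endoglin (gene Eng, a surface protein that binds TGF-beta family ligands together with their receptors) and Flk1 (gene Kdr, a receptor for vascular endothelial growth factor), cells carrying both proteins (Eng+Flk1+), Flk1 without Endoglin (Eng-Flk1+), Endoglin without Flk1 (Eng+Flk1-) or neither (Eng-Flk1-) were collected. Each fraction had 3 samples of 3000 cells, whose messenger RNA was amplified by PCR and hybridised to 12 Agilent arrays of 1 colour. Because the samples of a fraction were sorted from a single pool, p-values reflect variation among sorts and arrays, which may be technical, and not variation among embryos. A fraction is a mixture of cells, so fewer cells of a type and less RNA per cell cannot be told apart.

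Notch receptors sit in the cell membrane and are switched on by ligands of the Delta-like and Jagged families on a neighbouring cell. Proteases of the Adam family and the gamma-secretase complex then cut the receptor, and its inner part moves to the nucleus, where it joins the DNA-binding protein Rbpj and coactivators of the Maml family and turns on repressor genes of the Hes and Hey families. In the mouse embryo the pathway is known for its part in the identity of arteries and in the emergence of blood stem cells from vessel walls.

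Levels below are log2 of the signal minus each array's own 75th percentile, and a difference between fractions is a log2 fold with its standard error (SE) from a limma model that takes 1 spread per probe for all 4 fractions. A probe was called at an adjusted p under 0.05 over the 33133 probes tested. Arrays of 1 probe can be compared with each other, but the level of a probe cannot be set against that of another probe. Of all spots, 80.2% to 83.3% were well above background on the 9 arrays of cells with at least 1 marker, against 66.5% to 76.3% on the Eng-Flk1- arrays, and the median SD of probes was 0.73, 0.62 and 0.63 in Eng+Flk1+, Eng-Flk1+ and Eng+Flk1- cells, against 1.09 in Eng-Flk1- cells. A shared spread can thus understate the SE of folds over Eng-Flk1- and overstate that of the other folds. Kdr was higher in the Flk1 positive fractions by 7.16 ± 0.69 (limma adjusted p = 0.000878), while Eng was higher in the Endoglin positive fractions by 1.29 ± 0.50, which missed the threshold (limma adjusted p = 0.427).

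The promoter windows of 2 of the genes are shown. Hey2 is the only one of the 8 genes searched whose window holds the Rbpj motif. Notch1 is the gene called most often below. RefSeq's table for build GRCm38.p6 held a promoter window, 250 bases before to 50 bases after the annotated start, for 8 of the 10 genes. Hey1 and Hes1 had no window there, so their promoters were not searched. The letters GTGGGAA, the core of the sequence that Rbpj binds, were searched on both strands and matched in 1 of these 8 windows, that of Hey2, and in 6.38% of all 32851 windows of the same length. In Hey2 (chr10:30842734-30843033, minus strand) there were 2 matches, in capitals, at -207 to -201 on the opposite strand, where the gene's strand reads TTCCCAC, and across the start at -4 to 3. The Notch1 window (chr2:26503773-26504072, minus strand) held no match, so it has no capitals.
Hey2 promoter: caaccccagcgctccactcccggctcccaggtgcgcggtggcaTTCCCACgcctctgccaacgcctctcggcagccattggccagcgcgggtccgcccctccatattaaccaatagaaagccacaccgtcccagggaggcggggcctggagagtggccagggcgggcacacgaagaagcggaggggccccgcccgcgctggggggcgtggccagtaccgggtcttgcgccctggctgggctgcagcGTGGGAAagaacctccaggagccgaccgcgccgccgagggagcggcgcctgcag
Notch1 promoter: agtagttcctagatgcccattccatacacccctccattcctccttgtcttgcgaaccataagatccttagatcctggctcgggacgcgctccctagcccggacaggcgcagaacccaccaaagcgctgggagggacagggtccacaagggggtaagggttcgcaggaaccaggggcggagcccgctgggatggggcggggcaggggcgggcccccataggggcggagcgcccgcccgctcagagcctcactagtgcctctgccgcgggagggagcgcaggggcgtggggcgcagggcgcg

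The array reads each transcript through 60-base probes, and 3 of them are shown: the only probe of Hes1, and a probe each of Jag1 and Notch2, which have several. Positions are those of the files, on mouse build mm8. The only Hes1 probe lies at chr16:29985644-29985939 on the plus strand, a span of 296 bases for its 60 bases. The probe of Jag1 lies at chr2:136774647-136774706 (minus strand) and that of Notch2 at chr3:98232687-98232746 (plus strand). Exon and untranslated-region annotation of this build was not used here.
Hes1 A_51_P498093: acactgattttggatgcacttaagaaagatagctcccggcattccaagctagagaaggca
Jag1 A_51_P280906: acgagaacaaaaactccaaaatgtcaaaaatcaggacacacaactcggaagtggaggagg
Notch2 A_51_P216397: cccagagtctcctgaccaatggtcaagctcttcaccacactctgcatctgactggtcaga

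Among the receptors, only Notch1 was called in any comparison. It was highest in Eng+Flk1+ cells and lowest in Eng+Flk1- cells, by a log2 fold of 3.36 on its brightest probe, and it was the only gene of the 10 called when the Flk1 positive fractions were averaged against the Flk1 negative ones. The probe A_51_P508510 lies on chromosome 2 at 26281261 to 26281319 (minus strand), was spotted 10 times on each array and averaged. Its levels were 1.03, 0.26 and 1.34 in Eng+Flk1+, -0.63, 0.13 and -0.23 in Eng-Flk1+, -2.92, -2.19 and -2.33 in Eng+Flk1-, and -1.54, -1.05 and -0.22 in Eng-Flk1-. All Eng+Flk1+ arrays lay above all others, and all Eng+Flk1- arrays below all others, while Eng-Flk1+ and Eng-Flk1- overlapped. The probe A_52_P183088, at 26281319 to 26281378, starts at the base where the other ends. The 2 probes thus read adjoining stretches of the transcript and are not independent. It gave 0.29, -0.33 and 0.59 in Eng+Flk1+, -1.52, -0.84 and -1.02 in Eng-Flk1+, -3.33, -3.03 and -3.33 in Eng+Flk1-, and -2.49, -1.01 and -2.54 in Eng-Flk1-. The order of the fractions was the same on both probes, which had a Pearson r of 0.92 over the 12 arrays.

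In Eng+Flk1+ against Eng+Flk1- cells, which differ in Flk1 among Endoglin positive cells, both Notch1 probes were called higher, by 3.36 ± 0.51 and 3.42 ± 0.52 (limma adjusted p = 0.0253 for each). These were the only 2 calls among the 14 probes, where 0.341% of all probes were called and 0.214% were called higher. In Eng+Flk1+ against Eng-Flk1- cells, where 3.03% of all probes were called and 2.6% were called higher, A_52_P183088 was called higher (2.20 ± 0.52, limma adjusted p = 0.0484) and A_51_P508510 was not (1.81 ± 0.51, adjusted p = 0.0948). With the Flk1 positive fractions averaged against the Flk1 negative ones, Notch1 was higher by 2.03 ± 0.36 and 2.15 ± 0.36 (limma adjusted p = 0.0179 and 0.0140), with 1.75% of all probes called and 1.48% called higher. That average joins the folds of 3.36 and 3.42 among Endoglin positive cells with smaller ones among Endoglin negative cells. There Eng-Flk1+ exceeded Eng-Flk1- by 0.70 ± 0.51 and 0.89 ± 0.52, with overlapping arrays and no call (limma adjusted p = 0.489 and 0.389). Eng-Flk1+ exceeded Eng+Flk1- by 2.24 ± 0.51 and 2.11 ± 0.52 on all arrays without reaching the threshold (limma adjusted p = 0.194 and 0.2495). The array slide moved with the fractions: the 3 Eng-Flk1- arrays and 1 Eng-Flk1+ array shared a slide, the other 2 Eng-Flk1+ arrays shared another with 2 Eng+Flk1+ arrays, and the last held 1 Eng+Flk1+ array and the 3 Eng+Flk1- arrays. With the slide as a fixed block the Notch1 folds in Eng+Flk1+ against Eng+Flk1- were 3.82 and 3.83 and no longer called (limma adjusted p = 0.211 and 0.233). Since Eng+Flk1- arrays lie on that last slide alone, these folds set its lone Eng+Flk1+ array against its 3 Eng+Flk1- arrays. The same block ended the calls of the averaged Flk1 comparison (2.07 and 2.16, adjusted p = 0.263 and 0.256) and of Eng+Flk1+ against Eng-Flk1- (1.40, adjusted p = 0.993), the second of which was also lost without any single array other than Eng-Flk1- replicate 2 (limma adjusted p = 0.0627 to 0.161). With the slide as a random block both Notch1 probes were called in Eng+Flk1+ against Eng+Flk1- (0.00679 and 0.00664), as they were without the 3 Eng-Flk1- arrays (0.0161 and 0.0114). Leaving out Eng+Flk1+ replicate 1 or 3, or any of the 3 Eng+Flk1- arrays, left neither probe called, with folds of 3.12 to 3.52 and limma adjusted p of 0.0713 to 0.105.

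The fold between cells with and without Endoglin had opposite signs for Notch1 among Flk1 positive and Flk1 negative cells. Among Flk1 positive cells, Eng+Flk1+ exceeded Eng-Flk1+ by 1.12 ± 0.51 and 1.31 ± 0.52 with no overlap of arrays. Among Flk1 negative cells, Eng+Flk1- lay below Eng-Flk1-, with folds of -1.54 ± 0.51 and -1.22 ± 0.52, again with no overlap. None of these 4 folds was called (limma adjusted p = 0.998 and 0.889 among Flk1 positive cells, 0.179 and 0.302 among Flk1 negative cells), and neither was the difference between them, given with the results that call for a closer look. Such a pair of opposite, non-overlapping differences, higher among Flk1 positive and lower among Flk1 negative cells, was seen in 221 probes, 0.667% of all those tested. That share covers only the direction seen for Notch1, while a pair in the reverse direction would also have been listed for a closer look.

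The other receptors showed no such order. Notch4, a receptor known mainly from endothelial cells, was at -0.26, -1.37 and 1.28 in Eng+Flk1+, -2.50, -1.92 and -3.09 in Eng-Flk1+, -0.29, -1.97 and -2.27 in Eng+Flk1- and -1.67, -2.54 and -2.04 in Eng-Flk1- cells (probe on chromosome 17, 34196231 to 34196290, plus strand). The 3 Eng+Flk1+ arrays lay above those of Eng-Flk1+ and Eng-Flk1- and overlapped those of Eng+Flk1-. Its folds over Eng-Flk1+, 2.39 ± 0.75, and over Eng-Flk1-, 1.97 ± 0.75, missed the threshold (limma adjusted p = 0.613 and 0.225). Notch3 (chromosome 17, 31849609 to 31849668, minus strand) varied widely within Eng+Flk1+ (SD 2.67) and Eng-Flk1- (SD 2.59) cells: it was at 0.10, -1.34 and -5.07 in Eng+Flk1+, -0.08, -0.16 and -1.38 in Eng-Flk1+, -2.35, -1.31 and -2.18 in Eng+Flk1-, and 0.50, -3.75 and -4.21 in Eng-Flk1- cells. Every pair of fractions overlapped for Notch3, though the means of Eng-Flk1+ and Eng+Flk1- differed by 1.41, more than the larger SD of that pair, 0.73.

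Notch2 had 3 probes that did not run together, with Pearson r of -0.07, -0.24 and -0.51 between pairs of them over the 12 arrays. The probe A_51_P216397 shown above averaged 0.49 ± 0.25 in Eng+Flk1+ cells, -0.34 ± 0.94 in Eng-Flk1+ cells, -0.10 ± 0.41 in Eng+Flk1- cells and 0.10 ± 0.75 in Eng-Flk1- cells (SD, n = 3). The brightest, A_52_P289213 (chromosome 3, 98235396 to 98235455), averaged 3.49 ± 0.50, 3.08 ± 0.91, 3.32 ± 0.63 and 4.17 ± 1.503 in the same order. The dimmest, A_52_P448796 (98234325 to 98234384), ranged from -5.38 to 0.63 within Eng-Flk1- alone, where 2 of the 3 arrays were well above background. On each probe every pair of neighbouring means differed by less than the larger SD of the pair, and no Notch2 fold had an unadjusted p under 0.05 in any of the 9 comparisons.

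**Figure D1:**
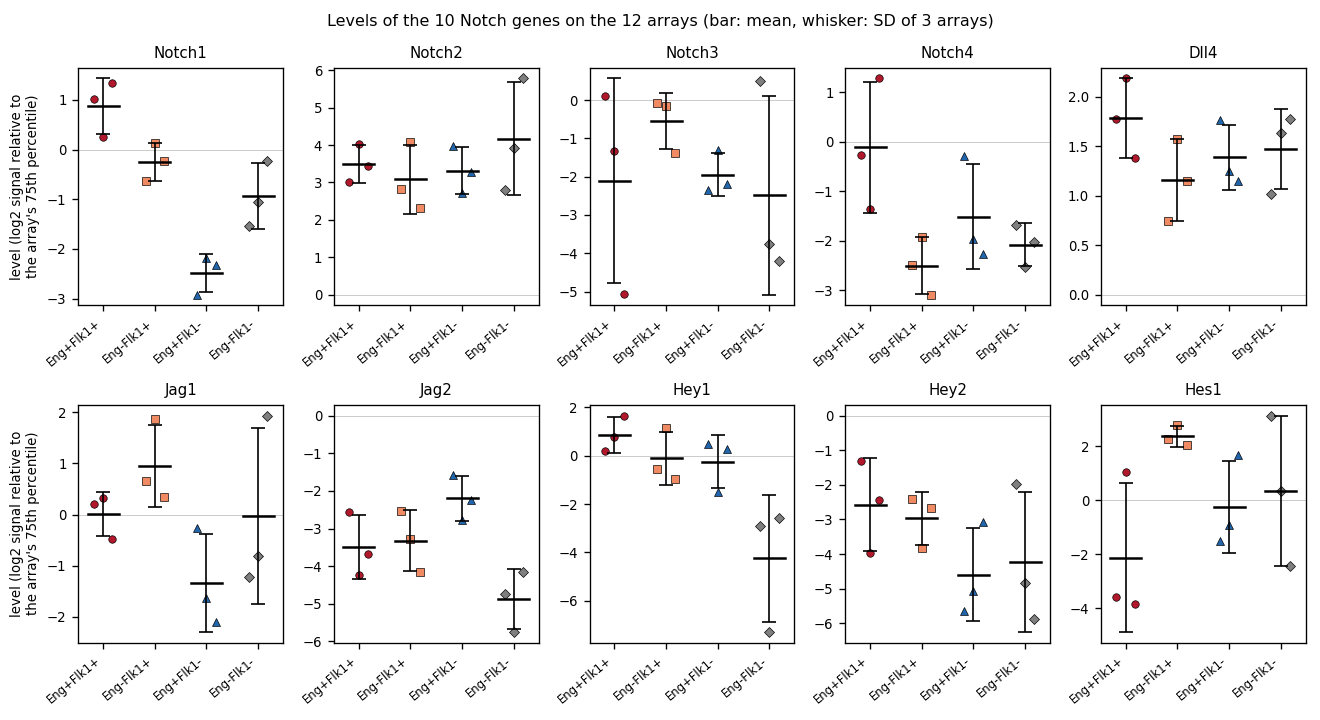
Level of each of the 10 genes on the 12 arrays (y axis, log2 signal relative to the array's 75th percentile, own scale for each gene) by fraction (x axis), using the brightest probe of each gene. Points are arrays, bars are means and whiskers are SD of 3 arrays; Notch1 is lowest on all 3 Eng+Flk1- arrays, and Hey1 is lowest on all 3 Eng-Flk1- arrays.

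**Figure D2:**
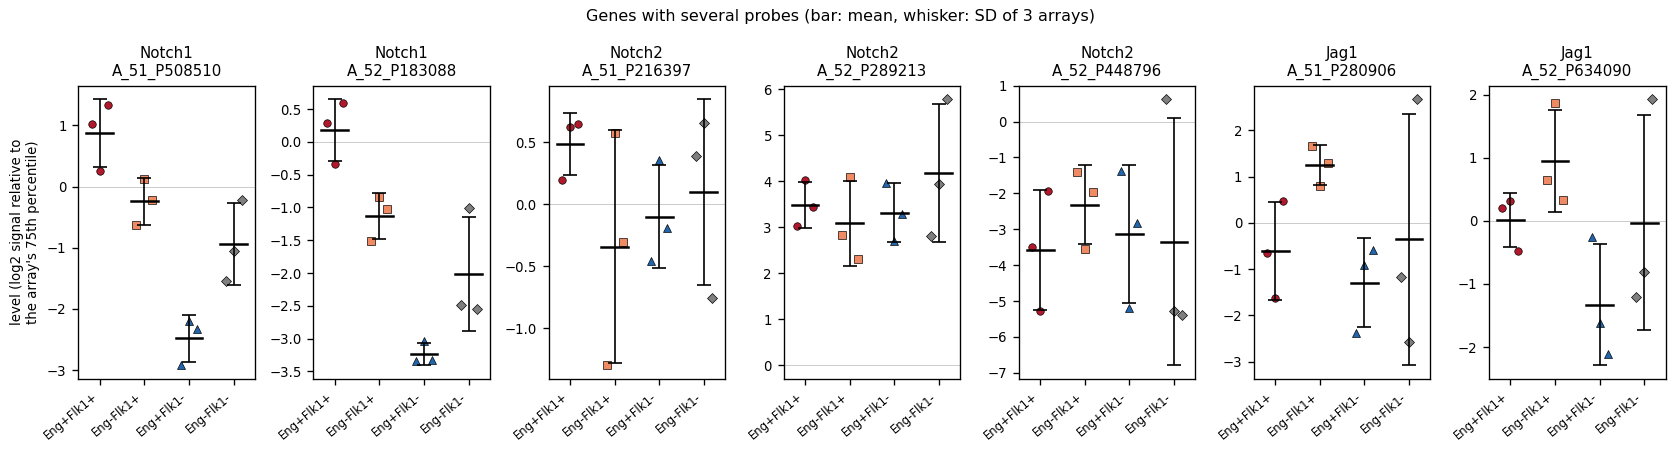
Level of every probe of the 3 genes with several probes (y axis, log2 signal relative to the array's 75th percentile) by fraction (x axis), with points for arrays, bars for means and whiskers for SD of 3 arrays. The 2 Notch1 probes give the same order of fractions, and the 3 Notch2 probes give different orders.

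Of the ligands, Dll4 differed least between fractions. Dll4, a ligand of arterial and sprouting endothelium, was at 1.78, 2.19 and 1.38 in Eng+Flk1+, 0.75, 1.57 and 1.15 in Eng-Flk1+, 1.76, 1.25 and 1.15 in Eng+Flk1- and 1.01, 1.64 and 1.77 in Eng-Flk1- cells (chromosome 2, 119026484 to 119026543, plus strand). All pairs of fractions overlapped, and the means spanned 0.63, the smallest span among the brightest probes of the 10 genes. Its SD within fractions was 0.33 to 0.41.

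Jag1, a ligand with roles in vessels, heart and somites, had its highest mean in Eng-Flk1+ cells on both probes. On A_51_P280906 it was at -0.66, -1.64 and 0.47 in Eng+Flk1+, 1.67, 0.80 and 1.29 in Eng-Flk1+, -2.39, -0.92 and -0.58 in Eng+Flk1-, and -1.18, -2.58 and 2.68 in Eng-Flk1- cells. On A_52_P634090 (chromosome 2, 136773138 to 136773197, minus strand) it was at 0.20, 0.32 and -0.47 in Eng+Flk1+, 0.65, 1.86 and 0.34 in Eng-Flk1+, -0.26, -1.63 and -2.11 in Eng+Flk1-, and -1.21, -0.80 and 1.93 in Eng-Flk1- cells. On both probes the Eng-Flk1+ arrays lay above those of Eng+Flk1+ and of Eng+Flk1- and overlapped those of Eng-Flk1-, where replicate 3 stood far above the other 2. Its folds for Eng-Flk1+ against Eng+Flk1-, 2.55 ± 1.16 on A_51_P280906 and 2.28 ± 0.84 on A_52_P634090, missed the threshold (limma adjusted p = 0.875 and 0.654). The 2 probes had a Pearson r of 0.61 over the 12 arrays.

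Jag2, the other Jagged ligand, had its lowest mean in Eng-Flk1- cells. It was at -2.57, -4.25 and -3.68 in Eng+Flk1+, -2.54, -3.29 and -4.14 in Eng-Flk1+, -1.58, -2.78 and -2.24 in Eng+Flk1-, and -4.74, -5.74 and -4.16 in Eng-Flk1- cells (chromosome 12, 113356484 to 113356543, minus strand). The Eng-Flk1- arrays lay below all Eng-Flk1+ and Eng+Flk1- arrays and overlapped Eng+Flk1+. Its fold in Eng+Flk1- against Eng-Flk1- was 2.68 ± 0.65, the lowest adjusted p of the 14 probes in that comparison (limma adjusted p = 0.0695).

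Among the targets, Hey1 was the gene with the widest span of means, 5.13 against 4.48 for Hes1. That rank rests on Eng-Flk1- replicate 2, without which the Hey1 span was 3.61. Hey1 encodes a repressor of the Hairy and Enhancer-of-split related family that acts downstream of Notch in arteries and heart. It was at 0.18, 0.78 and 1.66 in Eng+Flk1+, -0.54, 1.15 and -0.95 in Eng-Flk1+, 0.49, -1.50 and 0.26 in Eng+Flk1-, and -2.89, -7.29 and -2.58 in Eng-Flk1- cells (chromosome 3, 8646505 to 8646564, minus strand). The Eng-Flk1- arrays lay below every other array, 2 of the 3 were well above background, and the other 3 fractions overlapped one another. In Eng+Flk1+ against Eng-Flk1- cells Hey1 was called higher, by 5.13 ± 1.17 (limma adjusted p = 0.0438), and without Eng-Flk1- replicate 2, the array lowest for this probe, it was higher by 3.61 (adjusted p = 0.0359). Eng-Flk1+ and Eng+Flk1- exceeded Eng-Flk1- by 4.14 ± 1.17 and 4.01 ± 1.17 without reaching the threshold (limma adjusted p = 0.101 and 0.132). Eng+Flk1+ and Eng-Flk1- shared no slide. With the slide as a fixed block the fold was 4.10 and not called (limma adjusted p = 0.993), and leaving out any array of the other 3 fractions also ended the call (adjusted p = 0.0502 to 0.145), as did scaling to the array median (fold 4.54, adjusted p = 0.0903).

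Hey2, the close relative of Hey1, was at -1.30, -3.97 and -2.43 in Eng+Flk1+, -2.40, -3.84 and -2.66 in Eng-Flk1+, -5.65, -5.06 and -3.07 in Eng+Flk1-, and -1.99, -4.82 and -5.89 in Eng-Flk1- cells (chromosome 10, 30522339 to 30522398, minus strand). All pairs of fractions overlapped, and no Hey2 fold had an unadjusted p under 0.05. Hes1, a repressor that also answers to signals other than Notch, was at -3.57, 1.04 and -3.84 in Eng+Flk1+, 2.28, 2.77 and 2.03 in Eng-Flk1+, -1.49, -0.93 and 1.68 in Eng+Flk1-, and 3.12, 0.36 and -2.43 in Eng-Flk1- cells. Its Eng-Flk1+ arrays lay close together (SD 0.38) and above all Eng+Flk1+ and Eng+Flk1- arrays, while the other fractions had an SD of 1.69 to 2.78. The Hes1 fold in Eng+Flk1+ against Eng-Flk1+ was -4.48 ± 1.56, the largest of the 14 probes in that comparison, and was not called (limma adjusted p = 0.743). The lowest mean lay in Eng-Flk1- for Hey1, in Eng+Flk1- for Hey2 and in Eng+Flk1+ for Hes1, and for Hey2 and Hes1 no neighbouring means differed by more than the larger SD of the pair.

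Over the other comparisons limma called none of the 14 probes. The number with an unadjusted p under 0.05, set beside the share of all probes called and the share of all probes with such a p, was as follows. It was 3 for Eng+Flk1+ against Eng-Flk1+, with 0.0332% of all probes called and 5% at that p. It was 4 for Eng+Flk1- against Eng-Flk1-, with 2.02% and 14.9%, and 2 for Eng-Flk1+ against Eng-Flk1-, with 2.61% and 18.1%. For Eng-Flk1+ against Eng+Flk1- it was 3, with 0.124% and 5.72%. For the Endoglin positive fractions averaged against the Endoglin negative ones it was 4, with 0.459% and 9.26%, and for the interaction it was 3, with 0.546% and 11.2%.

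Counts of probes whose arrays did not overlap ran as follows. Of the 14 probes, 3 (2 of 10 genes by their brightest probe) lay wholly higher and 3 (2 genes) wholly lower in Eng+Flk1+ against Eng-Flk1+, where 6.83% and 7% of all probes did. For Eng-Flk1+ against Eng+Flk1-, 5 (3 genes: Notch1, Jag1 and Hes1) lay higher and 0 lower, against 8% and 8.03% of all probes. For Eng+Flk1+ against Eng-Flk1-, 4 (3 genes) lay higher and 0 lower, against 10.2% and 8.14%. For Eng+Flk1- against Eng-Flk1-, 2 (2 genes) lay higher and 2 (1 gene) lower, against 10.3% and 8.69%. The pairs Eng-Flk1+ against Eng-Flk1- and Eng+Flk1+ against Eng+Flk1- each had 2 higher (2 genes and 1 gene) and 0 lower, against 11.7% and 10.7% in the first of them and 7.84% and 7.59% in the other. The median fold of the 14 probes for the Flk1 positive against the Flk1 negative fractions was 0.69, against -0.01 over all probes, and 13 of 14 folds were above 0 against 49.5% of all probes, but with arrays scaled to their median 8 of 14 were above 0, against 36.2%. The median over the 14 probes for the Endoglin positive against the Endoglin negative fractions was -0.10, against 0.05 over all probes.

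**Figure D3:**
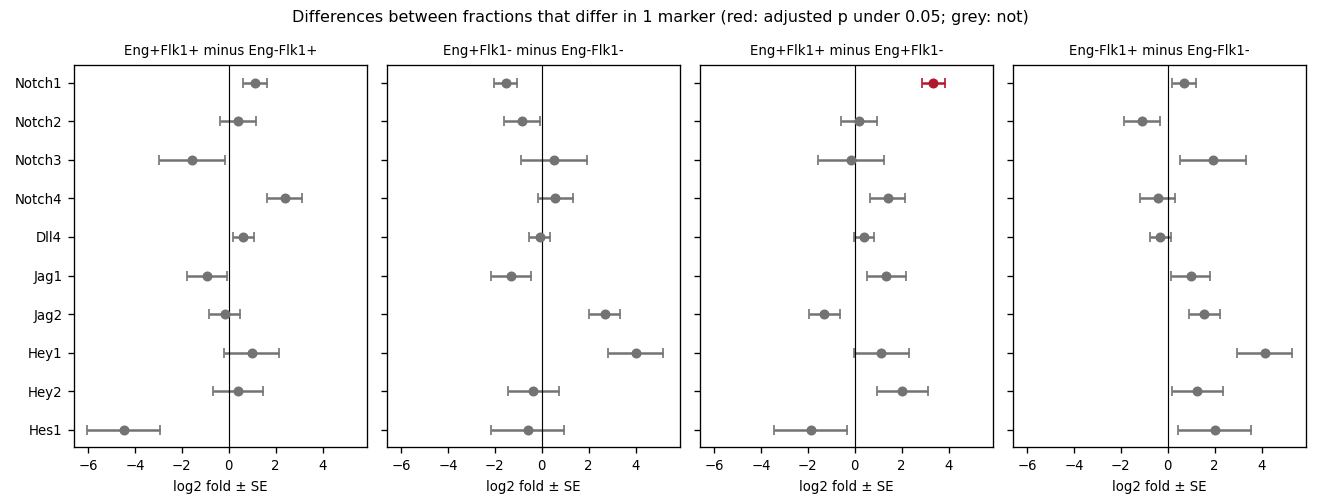
Log2 fold of the brightest probe of each gene (x axis, with its SE) in the 4 comparisons between fractions that differ in a single marker, 1 panel each, with genes down the y axis. Red marks a limma adjusted p under 0.05, which Notch1 alone reaches here, in Eng+Flk1+ against Eng+Flk1- (3.36 ± 0.51).

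Markers of cell types were followed on the same arrays, as mean levels over marker lists. The endothelial list (8 genes) averaged 0.84 to 1.59 per array in Eng+Flk1+ cells, -1.71 to -1.05 in Eng-Flk1+ cells, -3.53 to -3.02 in Eng+Flk1- cells and -3.71 to -2.87 in Eng-Flk1- cells. All 8 were well above background on at least 1 array of each fraction, and on all 3 arrays for 7, 8, 6 and 5 of the 8 in that order. Emcn of this list went the other way, with means of -5.51, -4.77, -4.35 and -4.34 in the same order. The blood and hemangioblast list (5 genes) averaged 2.15 to 2.53 in Eng+Flk1+ and 2.13 to 2.53 in Eng-Flk1+, against -0.02 to 0.37 in Eng+Flk1- and -2.03 to 1.56 in Eng-Flk1-. In Eng+Flk1- cells, where Notch1 was lowest, the list of trophoblast and extraembryonic ectoderm (5 genes) averaged 1.60 to 1.93, against -1.96 to -0.77 on the other 9 arrays. The visceral endoderm list (8 genes) averaged -3.38 to -2.01 on the arrays of the other 3 fractions, against 0.41 to 0.83 in Eng-Flk1- cells, where Hey1 was lowest, and Afp of that list was well above background on no array of Eng-Flk1+ or of Eng-Flk1-. The allantois and extraembryonic mesoderm list (4 genes) averaged -2.36 to 1.17 on the arrays of those 3 fractions, against -5.00 to -3.35 in Eng-Flk1-, and the neuroectoderm list (4 genes) -4.25 to -1.68 against 0.00 to 0.98. Within the neuroectoderm list, the fraction means of Sox2 and Otx2 spanned 7.23 and 8.80, with both well above background on only some arrays outside Eng-Flk1-, while those of Sox1 and Six3 spanned 0.90 and 0.56. The primitive erythroid list (6 genes) averaged -2.97 to -1.66 in the Flk1 positive fractions, against -1.33 to 0.70 in the Flk1 negative ones. The epiblast list (4 genes) averaged -1.95 to -0.51 in the fractions with at least 1 marker, against -0.36 to 0.66 in Eng-Flk1-, and the nascent mesoderm list (4 genes) -3.79 to -1.87 over all arrays. Single genes departed from their lists. Runx1 of the blood list spanned only 0.62 between fraction means. Amn of the visceral endoderm list averaged -1.01 in Eng+Flk1- and -1.15 in Eng-Flk1- cells. Gata1 of the erythroid list had its lowest mean, -2.63, in Eng-Flk1- cells. Utf1 of the epiblast list averaged 2.23 in Eng+Flk1- cells, against 1.32 in Eng-Flk1- cells. Cdx2 of the trophoblast list was at 1.52 on Eng-Flk1- replicate 3, above all Eng+Flk1- arrays (0.73 to 1.49). Hand1 of the allantois list was at -1.43 on Eng-Flk1- replicate 1, above all Eng+Flk1+ arrays (-5.55 to -2.06). The part of these cell types in the Notch1 and Hey1 results was not tested.

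Around the 10 genes, a list of 44 further genes of the pathway was followed with 1 probe each, of which 42 were tested and Dll3 and Aph1c were not. Of the 42, limma called only Pofut1, the enzyme that adds O-fucose to Notch receptors. Pofut1 was at 0.85, 1.21 and 0.79 in Eng+Flk1+, 0.54, 1.08 and 0.67 in Eng-Flk1+, -0.46, 0.30 and 0.61 in Eng+Flk1-, and -3.29, -4.36 and -6.09 in Eng-Flk1- cells. The Eng-Flk1- arrays lay far below all others, and 2 of the 3 were well above background. Against Eng-Flk1- cells Pofut1 was higher by 5.53 ± 0.66 in Eng+Flk1+ (limma adjusted p = 0.00174), 5.34 ± 0.66 in Eng-Flk1+ (0.00258, with 2.35% of all probes called higher) and 4.73 ± 0.66 in Eng+Flk1- (0.00563, with 1.78% called higher), and the averaged Flk1 positive fractions exceeded the Flk1 negative ones by 3.07 ± 0.46 (0.00850). With the slide as a fixed block none of these was called, with folds of 5.27, 5.12, 4.63 and 2.88 (adjusted p = 0.132 to 0.945), and with the arrays of the compared pair alone the fold over Eng-Flk1- in Eng+Flk1- was not (0.0710). No gene of the list was called lower in any of the 9 comparisons.

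By role, the list stood as follows. The other 3 sugar transferases, both Delta-like genes tested, the 4 ubiquitin ligases that act on ligands, the 9 genes of receptor cleavage, the 7 of the nuclear complex, the 8 regulators and the 8 further targets had none called. The median fold over the 42 genes was -0.04 in Eng+Flk1+ against Eng-Flk1+, -0.06 in Eng+Flk1- against Eng-Flk1-, 0.06 in Eng-Flk1+ against Eng-Flk1- and 0.11 in Eng+Flk1+ against Eng-Flk1-, where the medians over all probes were 0.05, 0.04, 0.03 and 0.04. The lowest p values in Eng+Flk1+ against Eng-Flk1+ belonged to Dlk1, a Delta-like protein without the domain that activates receptors (-1.62 ± 0.61, limma adjusted p = 0.853), and Dtx2, a Deltex ubiquitin ligase (-1.74 ± 0.90, adjusted p = 0.999). Next after Pofut1 in Eng+Flk1- against Eng-Flk1- came the protease Adam17 (1.76 ± 0.45, limma adjusted p = 0.0829). For Eng-Flk1+ against Eng-Flk1- it was the protease Adam10, which cuts ligand-bound receptors at the cell surface (3.64 ± 0.98, adjusted p = 0.0862). In Eng+Flk1+ against Eng+Flk1-, where Notch1 was called, the targets Hes7 and Heyl had folds of 1.02 ± 0.47 and 1.09 ± 0.52 (limma adjusted p = 0.734 and 0.760).

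**Figure D4:**
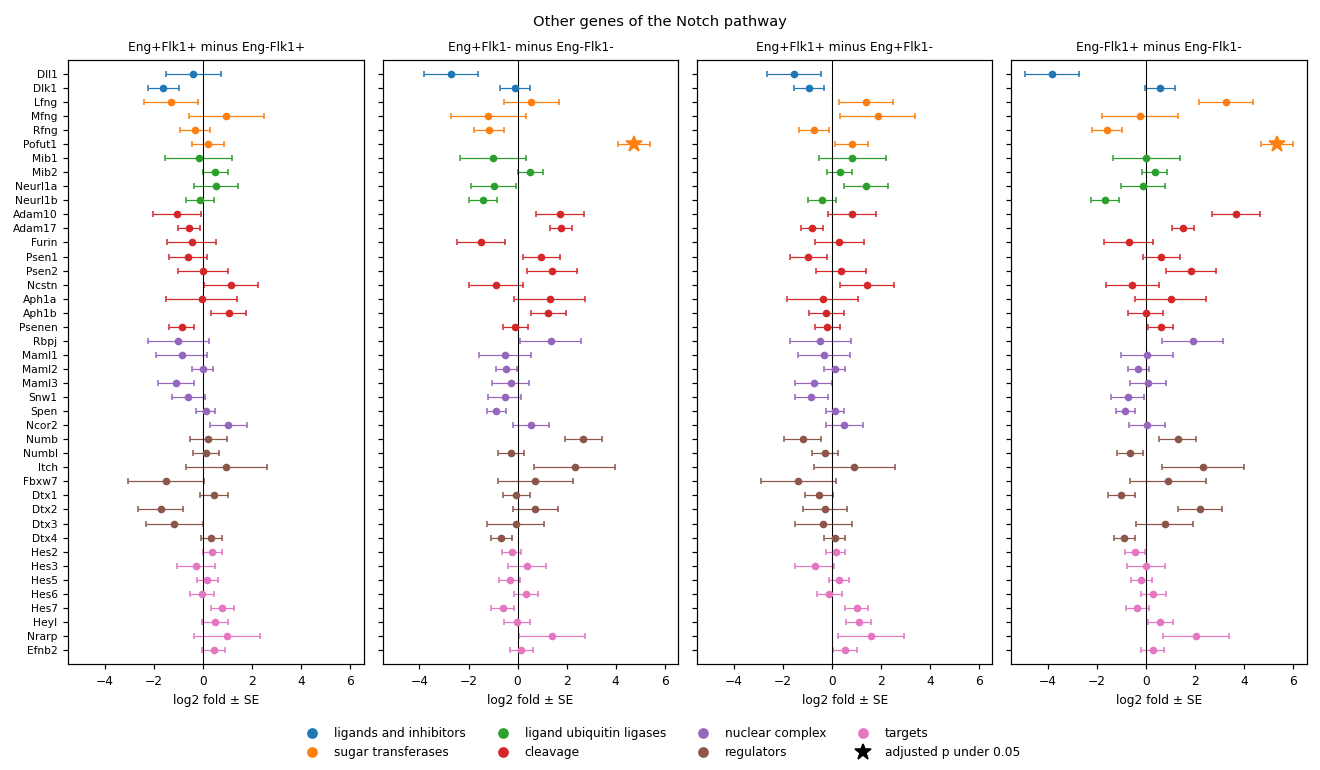
Log2 fold with its SE (x axis) of the 42 further pathway genes (y axis, grouped and coloured by role) in the 4 comparisons between fractions that differ in a single marker. Stars mark a limma adjusted p under 0.05, which Pofut1 alone reaches, with folds of 4.73 and 5.34 in the 2 comparisons with Eng-Flk1-.

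For the 4 genes with the widest span of fraction means, the genes with the most similar levels over the 12 arrays were found among 23300 probes well above background on all arrays, as a description in which the points share arrays and scaling. For Notch1 they were Prkcb, a protein kinase C (Pearson r = 0.94), the kinase Snrk (0.91) and fibronectin, Fn1 (0.91). Each was highest in Eng+Flk1+ and lowest in Eng+Flk1- cells, with means of 0.97 and -1.84 for Snrk. For Hey1 they were the membrane-binding protein Anxa6 (0.92), Med15 of the Mediator complex (0.91) and Setd3 (0.91), each with its lowest mean in Eng-Flk1- cells. By rank the match was looser: Spearman rho was 0.71 to 0.76 for these genes, against 0.82 to 0.965 for those of Notch1, Hes1 and Jag2. For Hes1 they were the growth factor Bmp7 (0.88), Actr8 (0.86) and the noncoding transcript Ftx (0.85), each lowest in Eng+Flk1+ cells. For Jag2 they were Psmd9 (0.91), the kinase Dstyk (0.90) and Tax1bp1 (0.89), each highest in Eng+Flk1- and lowest in Eng-Flk1- cells.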

How the data were processed

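Per the labels, cells of E7.5 CD-1 embryos were sorted in triplicate, cDNA was made from mRNA and amplified by PCR with the SuperAmp kit, and 250 ng was labelled with Cy3. Amplification can distort levels and adds spread for dim transcripts. Per the file headers, the deposited scanner files come from Agilent Feature Extraction 10.5.1.1 with probe positions on build mm8, and hold the processed signal as intensity, background-subtracted and not scaled between arrays. GeneSpring GX is the analysis software in the design text, with settings not given here. A deposited table by the authors holds the same intensity divided by the array's median.

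From the scanner files, outlier spots were set aside, log2 was taken, each array's 75th percentile was subtracted and spots of a probe were averaged. A probe was tested where some fraction had it well above background on its 3 arrays, with at least 2 unflagged values in each fraction (9 probes were left out for flags): 33133 of 41174 probes, with 236 missing values. Names were updated with RefSeq (24375 probes by accession, 4647 by a shared gene name, 2619 by symbol, 1514 by synonym, 8019 kept). The probe was the unit tested, in limma 3.58.1 (R 4.3.3, reading files by data.table in version 1.17.8), over all 12 arrays with 4 fractions, with Benjamini-Hochberg adjustment over all probes, and the script was tested on simulated data. There were 9 comparisons: 6 pairs, each marker averaged, and the interaction. For arrays, their number (3 per fraction) limits the precision.

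Genes and lists were chosen with earlier results of these data known. Named genes are all probes of the 10 genes, pathway genes called in any comparison or among the 2 lowest p values of a comparison differing in 1 marker, the 3 genes most like each of 4 members (leaving out other probes of the gene and names that are only identifiers), and Eng and Kdr. Alternatives were other background corrections, scalings, filters, the authors' table, slide and replicate blocks, variance models and left-out arrays.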

Additional observations from a re-analysis of the deposited data

Results flagged for a closer look

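The Endoglin difference of Notch1 is listed because arrays with and without Endoglin did not overlap, in opposite directions, on both probes. All Eng+Flk1+ arrays lay above all Eng-Flk1+ arrays, and all Eng+Flk1- arrays lay below all Eng-Flk1- arrays. The difference between the Endoglin fold among Flk1 positive cells and that among Flk1 negative cells was 2.66 ± 0.72 on probe A_51_P508510 (limma adjusted p = 0.156) and 2.53 ± 0.73 on probe A_52_P183088 (adjusted p = 0.190), so the test of the difference missed the threshold on both. The 2 probes abut in the genome and count as 1 observation of the transcript.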

How the results depend on the processing

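Of the folds of single probes recomputed under the alternatives, 942 values kept their direction and their side of the threshold, 73 kept the direction and lost the call, 19 kept it and gained one, and 0 reversed. Only member folds with an unadjusted limma p under 0.05 in the main fit, and folds of named pathway genes and sorting markers, were recomputed. Refitted on mostly the same arrays, such folds could hardly reverse, so the 0 is no measure of robustness. The 942 include folds called neither before nor after. For Eng+Flk1+ against Eng-Flk1+ and for the interaction, 0 of the 14 probes were called under any alternative. For Eng+Flk1+ against Eng+Flk1-, with 2 called, 1 was called with median scaling, with the authors' table, with 1 probe per gene and with the 2 compared fractions alone, 0 with the slide as a fixed block and within the slide they share (by construction the same contrast, with a lone Eng+Flk1+ array), and 0 to 2 when 1 array was left out. For Eng+Flk1+ against Eng-Flk1-, also with 2 called, 1 was called with normexp, with 1 probe per gene and with an intensity trend, 0 with median scaling, quantile normalization, the authors' table, no filter, the strict filter, a fixed slide block, array weights or the 2 fractions alone, and 0 to 2 when 1 array was left out. For the averaged Flk1 positive against Flk1 negative fractions, with 2 called, 1 was called with median scaling, the authors' table and 1 probe per gene, 0 with a fixed slide block and 1 to 2 when 1 array was left out (1 without Eng+Flk1+ replicate 1 or 3, Eng-Flk1+ replicate 3 or Eng+Flk1- replicate 1). The random slide block called 3 for Eng+Flk1- against Eng-Flk1-, 1 for Eng-Flk1+ against Eng-Flk1-, 2 for Eng-Flk1+ against Eng+Flk1- and 2 for the averaged Endoglin comparison, where 0 were called without it; array weights called 2 for Eng-Flk1+ against Eng+Flk1-. Apart from 1 probe per gene, fewer arrays and the filters, which change what is fitted, the cause was not tested. Median scaling moved the median fold of all probes to between -0.58 and -0.52 in the 3 pairs with Eng-Flk1-, and normexp to between -0.30 and -0.23.

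With the replicate number as a block, 0 probes were called for Eng+Flk1+ against Eng+Flk1- (Notch1 adjusted p = 0.0586 and 0.0720) and 0 for Eng+Flk1+ against Eng-Flk1-, while the averaged Flk1 comparison still had 2 (Notch1, adjusted p = 0.0343 and 0.0373). Whether the numbers pair the samples is not known, and correlations this weak cannot decide it. Deviations of same-numbered arrays correlated by -0.09 to 0.12 and of others by -0.10 to 0.07, and 6 of 12 arrays correlated best with an array of their own number. In Eng-Flk1- cells Hey1 and Pofut1 were each well above background on 2 of 3 arrays.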
